A study of Mus musculus with 6 samples.

Results

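The primary cilium genes described here are 36 genes of cilium transport and of inherited retinal ciliopathies, named by symbol. They were read from the rows of the array table whose only gene symbol was one of them, and where a gene has several such probe sets the one with the highest mean was to be used. 35 of the 36 genes had such a probe set, 1 each, among the 23521 probe sets with 1 symbol, which cover 22180 genes. The exception was Arl6, which is not analysed here. Transcript levels were read from total RNA of whole retinas, with each sample on its own Affymetrix Mouse Gene ST array. The 3 SIRT6 KO and 3 SIRT6 WT samples came from mice of strain 129SvJ at 15 days of age. SIRT6 is a histone deacetylase, and knock-out mice lack it in all tissues and are known to become severely hypoglycemic. Effects that start in the retina and effects of the illness of the animal cannot be told apart here. The labels number the samples 1 to 3 within each genotype but do not say whether they came from separate animals, and p-values measure only the spread between these samples, which may be technical.

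Each photoreceptor carries its light-sensitive outer segment on a modified primary cilium. Opsin and other outer segment proteins are made in the inner segment and pass through the connecting cilium, the counterpart of the transition zone of other cilia. Intraflagellar transport (IFT) particles run along the microtubules of the cilium, with the IFT-B complex serving the outward and the IFT-A complex the return journey, and the BBSome is a coat-like complex that carries membrane proteins out of the cilium. Mutations in these genes cause retinal degeneration, alone (retinitis pigmentosa, Leber congenital amaurosis) or with other organs affected (Bardet-Biedl, Joubert and Senior-Loken syndromes).

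Sirt6, the disrupted gene, had log2 intensities of 6.47, 7.15 and 6.83 in KO and 9.34, 9.14 and 9.32 in WT replicates 1 to 3, and the KO minus WT difference was -2.45 (limma, adjusted p = 0.032, standard error 0.20). No sample went against its label, although on leaving out 1 sample the adjusted p from limma stayed under 0.05 only without KO replicate 2. The 6 measured rod markers, Sag and Gnat1 among them, lay above the array median in every sample. Their summed intensity was 38560 to 42533 in KO and 41485 to 43395 in WT retinas. The lens list summed to 9371 to 26709 in KO and 13376 to 41366 in WT samples, and all 6 lens genes had lower means in KO. The 5 measured myelin genes had higher means in KO, where they summed to 886 to 1378, against 668 to 800 in WT. The part of these tissues in the results below was not tested. The interquartile range of log2 intensities was narrower in replicate 2 of each genotype (2.60 in KO and 2.48 in WT) than in the other samples (2.85 to 3.07), and the first principal component, with 60.1% of the variance, set these samples apart. The second component (18.7%) set KO replicate 3 apart. In bulk RNA, fewer photoreceptors and less RNA per photoreceptor cannot be told apart.

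Several of these genes share a promoter sequence that the choice of genes did not use. The X-box is the site bound by RFX transcription factors, which are known regulators of cilium genes. It was searched as GTNNCC, then any 2 bases, then GGNAAC (N being any base), on both strands of the RefSeq windows (GRCm38.p6) that run from 250 bases before to 50 after each gene start. This spelling was chosen after several had been tried. 32 of the 35 measured genes had at least 1 window, and Ift80, Ift81 and Ift122 had none. The match stood in 6 of 37 windows of these genes (16.2%), each of a different gene, and in 1.29% of the 32851 windows of all genes. The sites are shown with the match in capitals, 5′ to 3′ on the strand of the gene. The search itself fixed the named bases of the match, so the likeness of the 6 genes there is not a result.
Bbs1 (chr19:4906605-4906634, minus strand): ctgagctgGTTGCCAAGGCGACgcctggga
Bbs4 (chr9:59353464-59353493, minus strand): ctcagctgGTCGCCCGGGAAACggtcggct
Bbs7 (chr3:36613489-36613518, minus strand): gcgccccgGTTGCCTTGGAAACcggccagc
Ift57 (chr16:49699199-49699228, plus strand): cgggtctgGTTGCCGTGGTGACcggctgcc
Ahi1 (chr10:20952560-20952589, plus strand): tagtctgaGTTACCTAGGCAACagcggcag
Nphp4 (chr4:152477903-152477932, plus strand): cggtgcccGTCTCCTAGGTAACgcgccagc
The shorter motif GTTGCC, searched on both strands too, can lie inside the longer match. It stood in 14 of the 37 windows (37.8%) and in 12.5% of all windows. It was found in 13 of the 32 genes, Bbs5, Ift27, Ift88, Ift140, Ift172, Kif3a, Kif17 and Lca5 among them. A match is a description and not a bound site. The 6 genes with the longer match did not share a direction: Ift57, Ahi1, Nphp4 and Bbs7 had log2 differences of 0.22, 0.18, 0.14 and 0.12, Bbs4 had -0.02 and Bbs1 -0.20.

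None of the 35 cilium genes passed the test for a difference between KO and WT retinas. In limma's test of 3 KO against 3 WT samples, 0 passed at an adjusted p under 0.05 (smallest adjusted p = 0.9999), where 0.00425% of all probe sets did. At an unadjusted p under 0.05, 0 were higher and 0 lower, against 0.897% and 0.961% of all probe sets. The methods' Student test also called 0 in either direction. KO and WT values overlapped in all 35, while over all probe sets they lay apart in 1.98% with KO higher and in 3.67% with KO lower. The lowest exact permutation p was 0.20 (two-sided), above the smallest value of 0.10 that 3 samples against 3 allow. 18 genes had a higher and 17 a lower mean in KO, beside 48.2% and 51.8% of all probe sets, with a median log2 fold change of 0.00 (-0.01 over all probe sets). The differences were small: 33 of 35 lay between the 5th and 95th percentile of all probe sets (-0.30 to 0.35), 14 were under 0.1 and 11 reached 0.2 in size. The other two were Rpgr above and Mkks below these limits.

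The precision sets what could have been missed. The 95% interval of every gene stayed within a 2-fold change either way, and that of 20 of 35 within a 1.5-fold change. The widest bounds were -0.88 for Mkks and 0.90 for Bbs5. The spread inside a genotype was larger than the difference between the genotypes for most genes: the range over the WT samples exceeded the KO to WT difference in 33 of 35 genes and the range over the KO samples in 34. A range over few samples tends to exceed a difference of means, and these counts were not made over all probe sets. The ranges ran from 0.12 to 0.76 in KO and from 0.08 to 1.03 in WT on the log2 scale. Much of that spread was shared between the genotypes. In 25 of 35 genes (71.4%) replicate 2 was the lowest sample of both genotypes, against 32.0% of all probe sets and 52.3% of those at or above the median level, where all 35 of these genes lie.

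**Figure D1:**
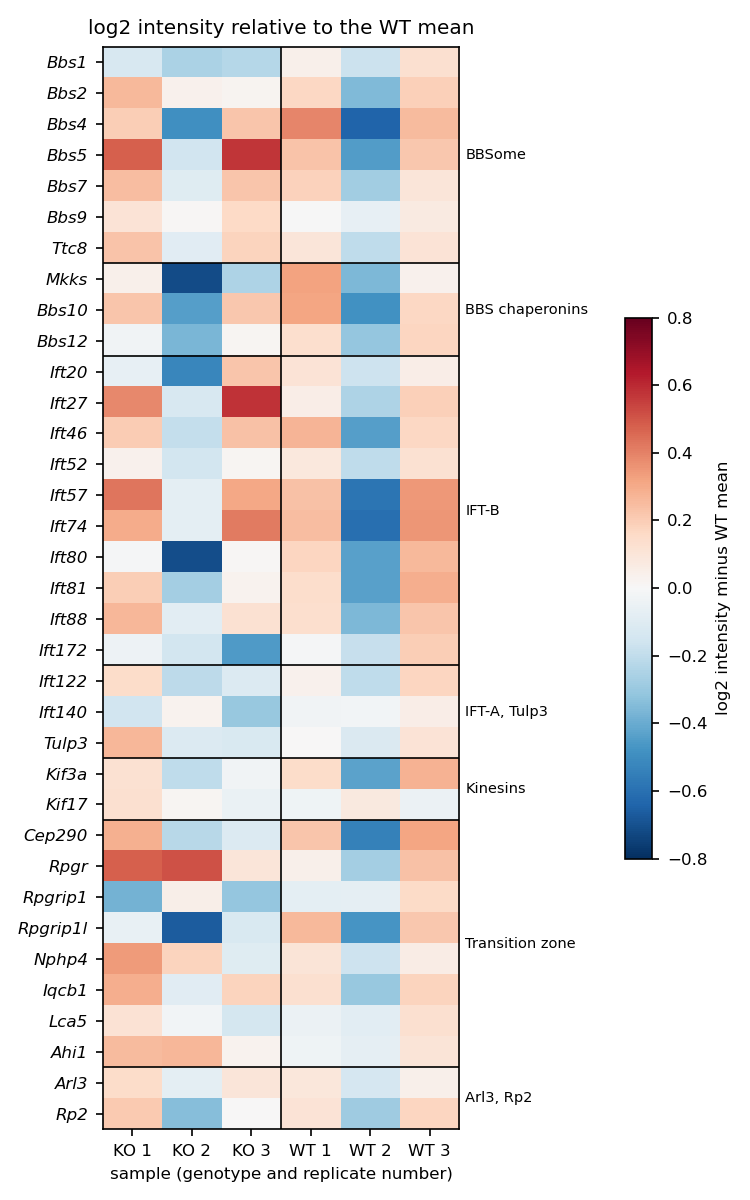
The log2 intensity of the 35 measured genes (rows, by group) in each of the 3 KO and 3 WT samples (columns), relative to the mean of the WT samples. The columns of replicate 2 are mostly blue in both genotypes (replicate 2 is the lowest sample of both in 25 of 35 genes), and no row separates the KO from the WT columns.

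The samples numbered 2 carried this shared deviation. The labels give same-numbered samples a shared tag. Deviations from the genotype mean correlated between same-numbered samples at 0.63, 0.74 and 0.19 for numbers 1 to 3. KO 1 with WT 3 had 0.51, so the match was clear only for number 2. Because of the tag, each KO sample was also compared with the WT sample of its number. For this, the replicate number was given a term of its own in limma (the replicate block). The standard error fell in all 35 genes, to 0.13 to 0.18, against 0.15 to 0.31 without the block. The fall was not particular to them. The median standard error went from 0.1992 to 0.1352 in these genes and from 0.2025 to 0.1416 over all probe sets. At an unadjusted p under 0.05, 1 of the 35 genes was then higher in KO (Bbs5), beside 3.77% of all probe sets, and 1 was lower (Mkks), beside 3.54%. The share of the cilium genes called was thus no higher than that of the array as a whole. With the block 0 cilium genes passed at an adjusted p under 0.05 (smallest adjusted p = 0.676), against 0.0128% of all probe sets. Bbs5 was chosen for description after its values were seen. Neither Bbs5 nor Mkks passed when both samples numbered 2 were left out of the blocked fit, where the difference of Mkks was -0.28 with a standard error of 0.19. That fit takes its error almost wholly from all probe sets (standard error 0.19 for Ift27 and Arl3 too). It therefore cannot show whether the difference of Bbs5 or Mkks holds.

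**Figure D2:**
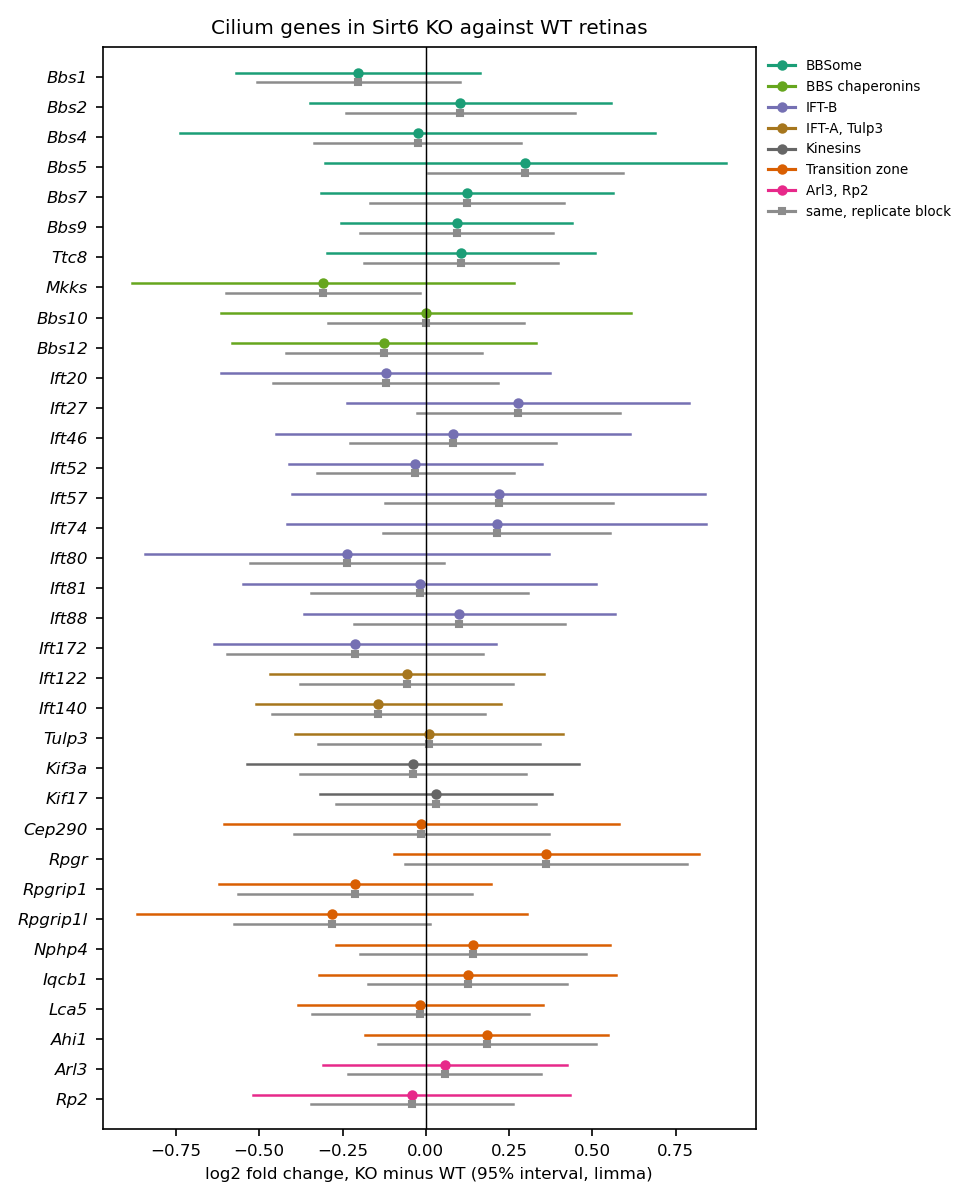
The log2 fold change of each measured gene, KO minus WT, with its 95% interval from limma without the block (coloured circles, by group) and with the replicate block (grey squares). All 35 coloured intervals cross 0, and among the grey ones those of Bbs5 (0.01 to 0.59) and Mkks (-0.60 to -0.02) do not.

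Most BBSome subunits had a higher mean in KO, and none passed the unblocked test. 5 of 7 had a higher mean, beside 48.2% of all probe sets. The median log2 fold change of the 7 was 0.10, which was -0.01 without WT replicate 2 and also -0.01 with array weights. Bbs5, a subunit that binds phosphoinositide lipids, had log2 intensities of 10.49, 9.86 and 10.58 in KO and 10.24, 9.56 and 10.23 in WT replicates 1 to 3. Every KO sample was above the WT sample of its number, by 0.25, 0.30 and 0.35, although KO replicate 2 lay below WT replicates 1 and 3 so that the groups overlapped. Its log2 fold change was 0.30 (standard error 0.26, unadjusted p = 0.288 from limma), and with the replicate block the standard error was 0.13 (unadjusted p = 0.046, adjusted p = 0.682). Bbs7, Bbs9 and Ttc8, all structural subunits, also exceeded their numbered partner in all 3 comparisons, by 0.07 to 0.18, 0.08 to 0.12 and 0.07 to 0.13.

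Bbs1, the subunit most often mutated in Bardet-Biedl syndrome, went the other way. It had 10.69, 10.56 and 10.58 in KO and 10.86, 10.65 and 10.94 in WT replicates 1 to 3. Only KO replicate 1 reached into the WT range. Its log2 fold change was -0.20 (standard error 0.16, 95% interval -0.57 to 0.16, unadjusted p = 0.239 from limma), the smallest p of the group in that fit, and it was lower in all 3 pairs of the same number (by 0.17, 0.08 and 0.36). Bbs2 (0.10, 95% interval -0.35 to 0.56) and Bbs4 (-0.02, -0.74 to 0.69) changed sign from pair to pair. Bbs4 had the widest range of the 35 genes in WT, with 10.66, 9.62 and 10.52, beside 10.47, 9.78 and 10.49 in KO. Its difference between replicate 2 and the others was of the same kind in both genotypes.

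The chaperonin-like proteins MKKS, BBS10 and BBS12 help the BBSome subunits to assemble. Mkks had 9.31, 8.55 and 9.02 in KO and 9.59, 8.91 and 9.30 in WT replicates 1 to 3. Each KO sample was below its numbered partner by nearly the same amount, -0.28, -0.36 and -0.28, while the groups as a whole overlapped. The log2 fold change of -0.31, or 0.808 times the level in WT, had a standard error of 0.25 without the block (unadjusted p = 0.253 from limma) and of 0.13 with it (unadjusted p = 0.041, adjusted p = 0.676). Without the block the difference of Mkks was -0.10 without KO replicate 2 and -0.15 without WT replicate 1. It was -0.48 without KO replicate 1 and -0.49 without WT replicate 2. Bbs12 was lower in each pair too, by 0.16, 0.06 and 0.15 (log2 fold change -0.13, 95% interval -0.58 to 0.33). Bbs10 differed by 0.00 (95% interval -0.62 to 0.62) and by -0.09, 0.04 and 0.05 within the pairs.

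**Figure D3:**
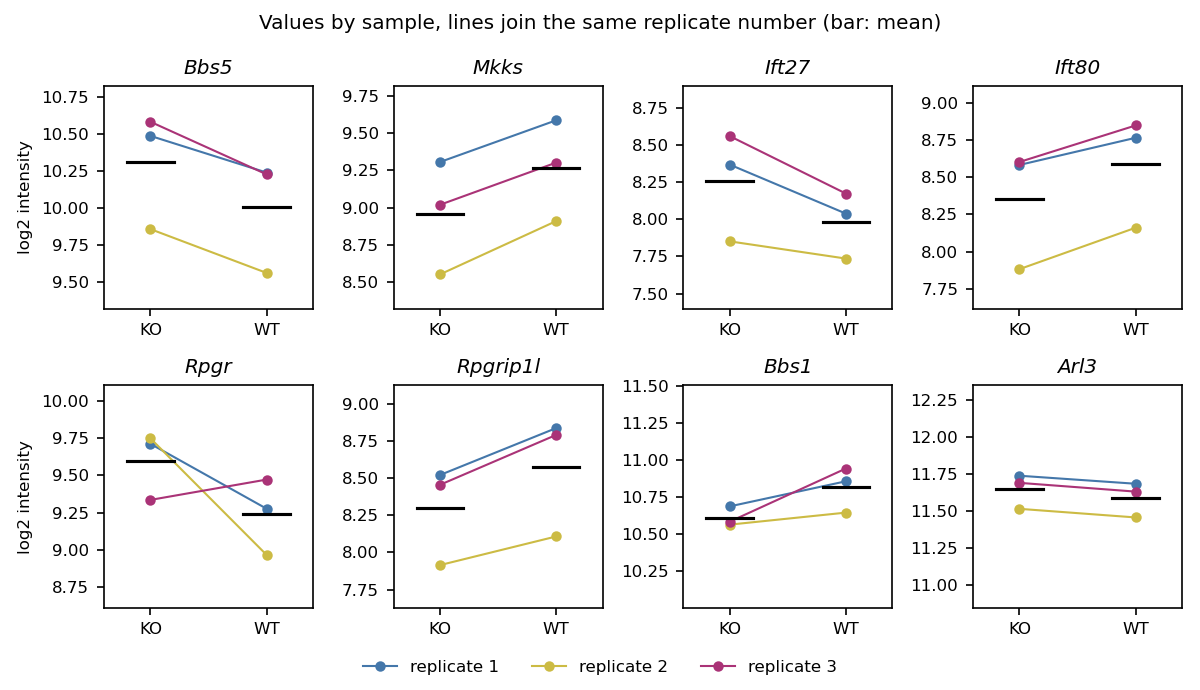
Log2 intensity of 8 genes in the KO (left) and WT (right) samples, with a line joining the samples of the same replicate number and a black bar at each mean. The lines of Bbs5 run down and those of Mkks, Ift80, Rpgrip1l and Bbs1 up from KO to WT in all 3 pairs, while the lines of Rpgr cross.

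The IFT genes stood on both sides of 0. Of the 10 IFT-B genes 5 had a higher and 5 a lower mean in KO (median 0.03), and with the IFT-A subunits Ift122 and Ift140 the median over 12 genes was -0.02. Ift27, a small GTPase of IFT-B through which the BBSome is coupled to export from the cilium, had 8.37, 7.85 and 8.56 in KO and 8.04, 7.74 and 8.17 in WT replicates 1 to 3. KO replicates 1 and 3 lay above all WT samples, and KO replicate 2 lay between WT replicates 2 and 1. The log2 fold change was 0.28 (standard error 0.22, 95% interval -0.24 to 0.79, unadjusted p = 0.249 from limma), and each pair was higher, by 0.33, 0.12 and 0.39. The difference was 0.13 without KO replicate 3, 0.15 without WT replicate 2 and 0.48 without KO replicate 2. Ift80, whose mutation causes a skeletal ciliopathy, had 8.58, 7.88 and 8.60 in KO and 8.77, 8.16 and 8.85 in WT. It was lower in each pair by 0.18, 0.28 and 0.25 (log2 fold change -0.24, 95% interval -0.84 to 0.37).

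Ift74 and Ift81 form the tubulin-binding pair of the IFT-B core, and both were lowest in replicate 2 of each genotype. Ift74 had 8.37, 7.99 and 8.49 in KO and 8.32, 7.47 and 8.42 in WT, and its log2 fold change of 0.21 (95% interval -0.42 to 0.84) came mostly from the difference of 0.52 in pair 2. Ift81 had a log2 fold change of -0.02 (95% interval -0.55 to 0.51). Ift57 had a profile like that of Ift74, with 9.06, 8.55 and 8.93 in KO, 8.86, 8.04 and 8.98 in WT and a difference of 0.51 in pair 2 (log2 fold change 0.22). Ift172, a large subunit at the tip turnaround, had 8.81, 8.70 and 8.39 in KO and 8.84, 8.66 and 9.04 in WT. Its log2 fold change of -0.21 (95% interval -0.64 to 0.21) rested on pair 3, at -0.65, with -0.03 and 0.04 in the other pairs. Ift88, whose partial loss in mice disrupts the outer segments, had 0.10 (95% interval -0.37 to 0.57). Ift46, Ift52 and Ift20, the last of which also serves at the Golgi, had 0.08, -0.03 and -0.12, with each interval crossing 0.

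The return-transport subunit Ift140 had 8.19, 8.37 and 8.04 in KO and 8.31, 8.32 and 8.40 in WT replicates 1 to 3. KO replicates 1 and 3 lay below every WT sample and KO replicate 2 within the WT range (log2 fold change -0.14, standard error 0.16, 95% interval -0.51 to 0.23). The difference was -0.06 without KO replicate 3 and -0.23 without KO replicate 2. Ift122, of the same complex, had -0.06 (95% interval -0.47 to 0.35). Tulp3, the adapter through which IFT-A brings receptors into the cilium, had 0.01 (95% interval -0.39 to 0.41) with a difference of 0.26 in pair 1, 0.00 in pair 2 and -0.23 in pair 3. The kinesins of outward transport had nearly equal means. Kif17 had 7.45, 7.33 and 7.27 in KO and 7.29, 7.40 and 7.27 in WT, a log2 fold change of 0.03 (95% interval -0.32 to 0.38), and Kif3a had -0.04 (95% interval -0.54 to 0.46). The values of both kinesins overlapped between the genotypes.

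The transition zone and connecting cilium genes held the highest log2 fold change of the 35, that of Rpgr, and the second lowest, that of Rpgrip1l, and none passed. Rpgr, mutated in most X-linked retinitis pigmentosa, had 9.71, 9.75 and 9.33 in KO and 9.28, 8.97 and 9.47 in WT replicates 1 to 3. KO replicates 1 and 2 lay above all WT samples, whereas KO replicate 3 lay between WT replicates 1 and 3. The log2 fold change of 0.36, or 1.29 times the level in WT, had a standard error of 0.20 (95% interval -0.10 to 0.82) and without the block the smallest unadjusted p of the 35 genes (0.106 from limma). With the block its unadjusted p was 0.084, above those of Mkks, Bbs5, Rpgrip1l and Ift27. The difference was 0.23 without WT replicate 2 and 0.15 without both samples numbered 2. It was 0.49 without KO replicate 3 and 0.48 without WT replicate 3. Rpgrip1, which anchors RPGR in the connecting cilium, did not follow it. It had 11.38, 11.81 and 11.45 in KO and 11.68, 11.69 and 11.91 in WT, a log2 fold change of -0.21 (95% interval -0.62 to 0.20), with pair 2 (0.12) opposite in sign to pairs 1 (-0.30) and 3 (-0.46).

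Rpgrip1l, a relative of Rpgrip1 at the transition zone of many cell types, had 8.52, 7.91 and 8.46 in KO and 8.84, 8.11 and 8.79 in WT replicates 1 to 3. It was lower in each pair, by 0.32, 0.19 and 0.34 (log2 fold change -0.28, standard error 0.26 without and 0.13 with the block, unadjusted p = 0.301 and 0.059 from limma). Without WT replicate 2 alone, Rpgrip1l was lower at an unadjusted p under 0.05, beside 3.50% of all probe sets. Without both samples numbered 2, Rpgrip1l and Rpgrip1 were lower and Ift27 higher at an unadjusted p under 0.05, beside 2.75% of all probe sets lower and 3.54% higher in that fit. Cep290, which links the connecting cilium's microtubules to its membrane, had 10.00, 9.50 and 9.61 in KO and 9.94, 9.18 and 10.03 in WT (log2 fold change -0.01, 95% interval -0.61 to 0.58). Ahi1, a Joubert syndrome gene, had 10.50, 10.52 and 10.27 in KO and 10.21, 10.18 and 10.35 in WT (0.18, 95% interval -0.18 to 0.55). The nephrocystin genes Nphp4 and Iqcb1 had 0.14 and 0.13, and Lca5, which codes for lebercilin, -0.02, with every interval crossing 0.

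ARL3 is the small GTPase that releases lipid-modified cargo such as phototransduction proteins inside the cilium, and RP2 is its GTPase-activating protein. The difference of Arl3 was small and even, with 11.74, 11.51 and 11.69 in KO and 11.68, 11.46 and 11.63 in WT replicates 1 to 3, a KO excess of 0.05, 0.06 and 0.06 within the pairs. This was well inside the error of the fit (log2 fold change 0.06, 95% interval -0.31 to 0.42, and -0.23 to 0.35 with the block). Rp2 had -0.04 (95% interval -0.52 to 0.43).

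Set side by side, the BBSome, IFT and transition zone genes had median log2 fold changes of 0.10, -0.02 and 0.06. These medians moved with single samples: on leaving out 1 sample they ran from -0.01 to 0.20 for the BBSome, from -0.15 to 0.09 for IFT and from -0.04 to 0.16 for the transition zone, lowest without WT replicate 2 in all 3 groups. Their medians within a sample, relative to the WT mean, overlapped between the genotypes in each of these groups. For the BBSome these were 0.23, -0.10 and 0.18 in KO and 0.16, -0.28 and 0.13 in WT replicates 1 to 3. For IFT they were 0.17, -0.15 and 0.07 in KO and 0.12, -0.30 and 0.19 in WT. For the transition zone they were 0.27, 0.01 and -0.10 in KO and 0.07, -0.22 and 0.16 in WT. In all 3 groups WT replicate 2 was the lowest sample.

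7 of the 35 genes were higher in KO in all 3 pairs, where 13.5% of all probe sets were, and 5 were lower in all 3, where 15.9% were. Of the 7 higher genes 4 were BBSome subunits (Bbs5, Bbs7, Bbs9 and Ttc8), with Ift27, Ift74 and Arl3. The 5 lower ones were Bbs1, Mkks, Bbs12, Ift80 and Rpgrip1l. In the transition zone group only Rpgrip1l kept 1 direction. There 6 of 8 genes were higher in KO in pair 1 and 7 of 8 in pair 2, yet 8 of 8 were lower in pair 3. Of these Iqcb1 was practically level in pair 3, at -0.0007. The median differences of the group were 0.16, 0.27 and -0.21. Over all probe sets 53.3% were higher in pair 1, 46.9% in pair 2 and 47.9% in pair 3. Across the 35 genes 21, 26 and 10 were higher in pairs 1, 2 and 3. Pair 2 holds the samples set apart by the first principal component, and pair 3 holds KO replicate 3, set apart by the second. The part of these samples in the counts was not tested. Whether these groups differ from one another was not tested.

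**Figure D4:**
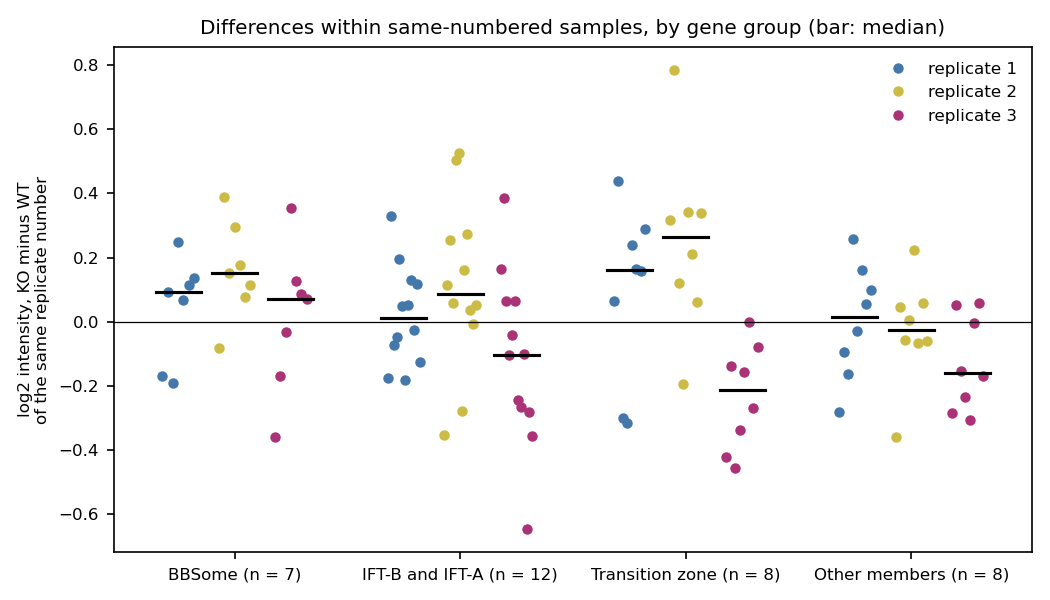
The difference between the KO and the WT sample of the same replicate number (log2 intensity) for each gene, by group and replicate number, with a bar at the median. The transition zone points lie mostly above 0 for replicates 1 and 2 (medians 0.16 and 0.27). For replicate 3 they lie below 0 (median -0.21), with Iqcb1 practically on the line at -0.0007. The BBSome medians are above 0 for each number.

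No further gene of the same pathways passed the unblocked test either. Of 61 further genes in 4 lists 54 were measured, 0 passed in limma at an unadjusted p under 0.05 in either direction, and KO and WT overlapped in all of them (28 higher and 26 lower means, median 0.01). Among other IFT, BBSome and motor genes, 7 of 21 were higher in KO in all 3 pairs and 1 lower, beside 13.5% and 15.9% of all probe sets. With the block the dynein light chain gene Tctex1d2 (0.38, standard error 0.26 without and 0.16 with the block) and Hspb11, which codes for the IFT-B subunit IFT25, the partner of IFT27 (0.34, standard error 0.30 without and 0.14 with the block), were higher at an unadjusted p under 0.05, which is 2 of 21 genes beside 3.77% of all probe sets in that fit (blocked adjusted p = 0.676 and 0.679 from limma). Hspb11 exceeded its numbered partner by 0.21, 0.21 and 0.60 in pairs 1 to 3, and Ift27 was also higher in every pair. In the other transition zone and basal body list, 13 of 19 had a higher mean, beside 48.2% of all probe sets. With the block 1 of the 19, the transition zone membrane protein gene Tmem17 (0.31, standard error 0.28 without and 0.13 with the block), was higher at an unadjusted p under 0.05 (adjusted p = 0.681 from limma), beside 3.77% of all probe sets. Cep164, at the distal appendages of the basal body, had the lowest log2 fold change of that list (-0.33, standard error 0.27). Of other lipidated cargo and small GTPase genes 7 of 8 had a lower mean (median -0.10), beside 51.8% of all probe sets. The 6 RFX factors ran from -0.11 (Rfx3) to 0.14 (Rfx5). With the block 0 of the 54 passed at an adjusted p under 0.05.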

How the data were processed

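The authors processed the CEL files with RMA in R Bioconductor (background correction, quantile normalization, summary per probe set), and the deposited values are intensities on a linear scale (8.01 to 16601 in WT replicate 1). The package version, annotation and build are not given in the sources used here. Log2 was taken. Symbols came from the platform annotation. 1820 probe sets had several symbols and 16004 none, and these were left out. Differences, KO minus WT, were tested two-sided over 23521 probe sets with limma (version 3.58.1, R 4.3.3; lmFit, then eBayes), with Benjamini-Hochberg adjustment over all of them at 0.05. Pairing of samples by replicate number was checked by the correlation of deviations from the genotype mean. Between samples of the same number r was 0.63, 0.74 and 0.19 for numbers 1 to 3. Between different numbers it was 0.51 for KO 1 with WT 3, 0.12 for KO 3 with WT 1 and negative otherwise. Only number 2 thus stood clearly apart. The labels give same-numbered samples a shared tag, so values with the number as a block are reported too. Alternatives were the block, the methods' t-test, a further quantile normalization, centring arrays on their medians, only probe sets of at least median level, also those without 1 symbol, an intensity trend with robust prior, array weights, leaving out each sample and leaving out both samples numbered 2. The members and lists were chosen with earlier results of these data known. All 6 values are given for the member with the smallest p in each group, and members outside that rule were chosen after their values were seen. The number of arrays limits the precision.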

Additional observations from a re-analysis of the deposited data

How the results depend on the processing

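No cilium gene passed at an adjusted p under 0.05 under any of the 16 alternatives. At an unadjusted p under 0.05, the replicate block gave 1 higher (Bbs5) and 1 lower gene (Mkks), array weights 0 higher and 3 lower (Bbs1, Mkks and Rpgrip1l, beside 9.71% of all probe sets), leaving out both samples numbered 2 1 higher and 2 lower, and leaving out 1 sample 0 higher and 0 to 1 lower. The fit added after seeing the data, with the block and without both samples numbered 2, gave 0 and 0, with an error taken almost wholly from all probe sets. The remaining alternatives gave 0 in both directions.

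Over the 23521 probe sets with 1 symbol, 211 were higher (0.897%) and 226 lower (0.961%) at an unadjusted p under 0.05. The fit without dim probe sets tested 13290 of these, and the fit that adds those without 1 symbol tested all 41345. The number higher was 887 with the block, 2253 with array weights, 101 without dim probe sets (0.76%) and 322 over the 41345 (0.779%). It was 833 without both samples numbered 2, 1310 with the block and without these, and 114 to 1204 on leaving out 1 sample. The number lower was 833 with the block, 423 by the methods' t-test and 616 after a further quantile normalization. It was 353 over the 41345 probe sets (0.854%) and 2283 with array weights. Without both samples numbered 2 it was 647, with the block and without these 852, and on leaving out 1 sample 70 to 823. At an adjusted p under 0.05, 1 probe set passed in the unblocked limma fit, 3 with the block and 5 with array weights. The count was 0 by the methods' t-test, with median centring, over the 41345 probe sets and without both samples numbered 2. It was 206 with the block and without these samples, and 0 to 1 on leaving out 1 sample. The cause was not tested.

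Sirt6 kept its direction but not its adjusted call by the methods' t-test (-2.445) and with median centring (-2.4413). The same held over all 41345 probe sets (-2.445) and without both samples numbered 2 (-2.673). On leaving out 1 sample its difference ran from -2.6099 to -2.2721. The difference of Arl3 turned to -0.0093 with array weights, and on leaving out 1 sample ran from -0.0099 (without WT replicate 2) to 0.1235. That of Kif17 ran from -0.0193 (without KO replicate 1) to 0.0723. The differences of the others described by rule kept their sign on leaving out 1 sample, with ranges of -0.4865 to -0.1034 for Mkks, -0.2874 to -0.1390 for Bbs1, 0.1279 to 0.4820 for Ift27, -0.2290 to -0.0625 for Ift140 and 0.2255 to 0.4941 for Rpgr. The replicate block changed no other call of a cilium gene. Taking another probe set per gene, or their mean, could give nothing different, since each gene had 1. The spread of 3 arrays per genotype limits what could be detected.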

Other observations

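Genes of motile cilia, the beating kind that photoreceptors do not carry, stood beside the cilium genes of the report as a comparison list. 9 of its 12 genes were measured, of which 5 lay below the array median in all 6 samples and 2 above it in all 6. Of the 9, 4 had a higher and 5 a lower mean in KO. KO and WT lay apart with KO lower in 2 of them, beside 3.67% of all probe sets. Dnah9, an axonemal dynein heavy chain gene, had log2 intensities of 7.05, 7.24 and 7.32 in KO and 7.81, 7.74 and 7.85 in WT replicates 1 to 3. The groups did not overlap, with KO lower. The difference was -0.60 (standard error 0.16, unadjusted p = 0.0048 and adjusted p = 0.9999 from limma), and it was named after its value was seen. Hydin, a gene of the central pair apparatus, also lay lower in KO without overlap, with 6.22, 6.29 and 6.33 in KO and 6.41, 6.72 and 6.33 in WT. However, KO replicate 3 and WT replicate 3 were nearly equal (-0.21, standard error 0.17, unadjusted p = 0.248 from limma). All 6 of its values lay below the array medians (6.94 to 7.09). Foxj1, the regulator of motile cilium genes, had a difference of 0.11 (standard error 0.17) with overlapping groups.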
